A study of Chlamydomonas reinhardtii with 42 samples.

Results

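The 45 genes described here encode parts of the cilium of Chlamydomonas reinhardtii, a unicellular green alga that swims with a pair of cilia. They are the genes whose symbol in either of the authors' rapamycin tables begins with IFT, BBS, RSP, ODA, IDA, DRC, DHC, DIC, DLC or PF and a number. All 45 were found by locus among the 17114 genes of the table of normalized counts. The rapamycin tables give a symbol to 984 genes, so genes of the same families without one are not covered. The set holds 9 genes of intraflagellar transport (IFT), 2 of the BBSome, 13 of the radial spoke, 8 of the outer dynein arm and its docking complex and 5 dynein light chains. It also holds 5 genes of the inner dynein arms, 1 of the dynein regulatory complex and 2 of the central pair, which the name dynein, spoke and IFT does not cover.

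A motile cilium is built on a ring of outer doublet microtubules around a central pair. Outer and inner dynein arms on each doublet slide it against its neighbour, and radial spokes carry control signals from the central pair to the arms. Proteins enter and leave the cilium on IFT trains, which a kinesin drives to the tip and a dynein drives back, and the BBSome is a cargo adaptor on those trains. In this alga the genes of ciliary proteins are known to be induced together when cilia are regrown after loss, and cilia are resorbed before division and rebuilt afterwards.

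RNA was measured in the strains DHC16 and A31 at 0, 12 and 48 h after vitamin B12 and thiamine were added to the medium of both, a treatment that induces depletion of ClpP1, a catalytic subunit of the chloroplast Clp protease. DHC16 is here a strain and not a dynein heavy chain gene, and the growth protocol spells it DCH16. There were 3 libraries per group but only 2 (numbers 19 and 22) for A31 at 48 h, and no culture without vitamins was sampled at 12 or 48 h. A further 24 records are labelled rapamycin, which inhibits the growth-regulating kinase TOR: both strains at 0, 12 and 48 h, and A31 at 2 and 8 h. The first 18 of these share strain, time and number with the vitamin records, and the authors' deposited means and fold changes cover A31 at 0, 2 and 8 h. The labels give neither the alleles of the strains, nor which of them loses ClpP1, nor if the replicates were grown apart. The p-values given here therefore reflect library-to-library scatter that could be purely technical. Growth is given as light, dim light or darkness without saying which sample had which. A change with time may thus also reflect growth, light or the hour of harvest.

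Between 7458423 and 13699705 reads were recovered per library, and 1 read was worth 0.703 to 2.04 normalized counts. Every one of the 45 genes passed the filter on low values, with 94 to 4657 reads per library. The A31 libraries at 48 h lay apart. Library 19 had a mean rank correlation over all tested genes of 0.943 with the A31 libraries at 0 h and 0.813 with those at 12 h, and library 22 had 0.775 and 0.919. The deposited totals differed between groups, with 6350337 to 7443292 normalized counts in DHC16 at 48 h, against 11875128 to 16502090 in DHC16 at 0 h, so values were also scaled to 1 total per library (per-million scaling). In bulk RNA, fewer cells making a transcript and less transcript per cell cannot be told apart.

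The steadiest pattern was a loss of these transcripts in DHC16 between 12 and 48 h. All 45 had each DHC16 library at 48 h below each at 12 h, against 34.3% of all tested genes, and 0 had it above, against 31.1%. The test called 35 of 45 lower and 0 higher, against 24.6% and 23.2% of all tested genes. Their median log2 change was -0.90, where that of all tested genes was -0.05. Changes are differences of log2(normalized count + 1) tested with limma at an adjusted p of 0.05 over 14422 genes, and SE stands for standard error. With per-million scaling, 25 of the 45 were called lower and 0 higher, and all 45 lay below the median of all genes there too.

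**Figure D1:**
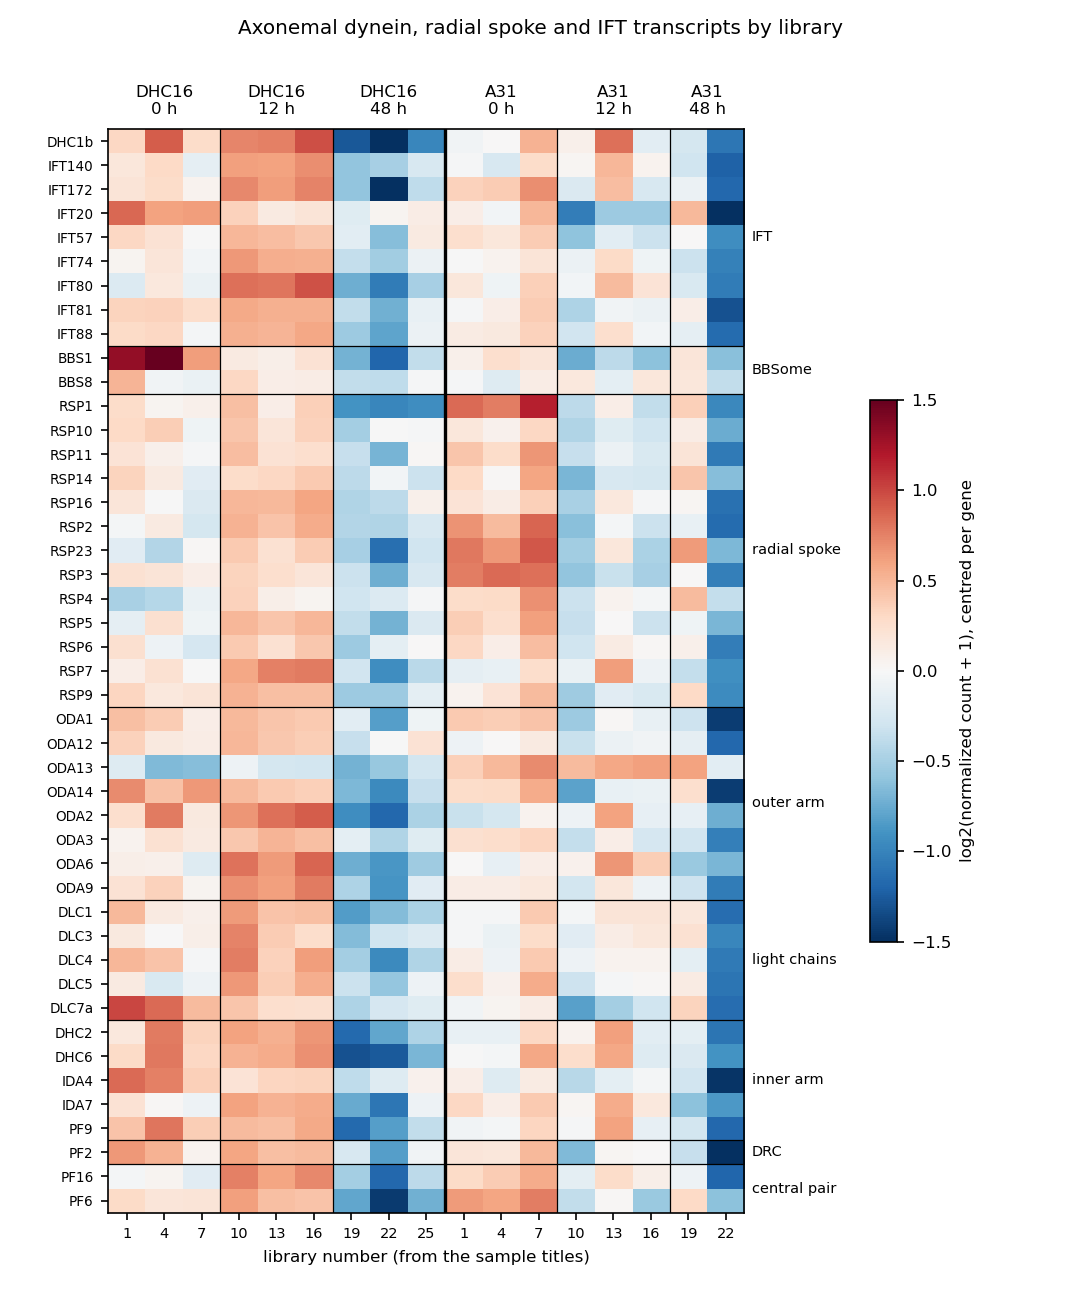
Log2(normalized count + 1) of each of the 45 genes, centred on its own mean over the 17 libraries (colour), with genes in rows by structure and libraries in columns by strain and time. DHC16 is red at 12 h and blue at 48 h for nearly every gene, while A31 at 48 h has 1 pale library (19) and 1 deep blue one (22).

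Summed over the 45 genes, DHC16 libraries held 37132 to 45391 normalized counts at 0 h, 46138 to 48471 at 12 h and 20672 to 28251 at 48 h. A31 libraries held 36517 to 44237 at 0 h and 28048 to 38810 at 12 h, and at 48 h library 19 held 33644 and library 22 held 16733. The strains overlapped at 0 h and not at 12 h, where the sum was higher in DHC16.

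Genes of replication and mitosis moved at the same times. Summed over 30 such genes, DHC16 held 1353 to 1421 normalized counts at 0 h, 10928 to 14062 at 12 h and 4042 to 4379 at 48 h, and A31 held 1519 to 1597, 17256 to 19891 and 3197 to 10276. At 12 h 29 of the 30 rose in DHC16, against 30.1% higher among all tested genes, and 30 of 30 rose in A31, against 31.5%. The 2 A31 libraries at 48 h are the 2 ends of that last range, with 3197 in library 19 and 10276 in library 22. The part of cell division in the ciliary values was not tested.

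**Figure D2:**
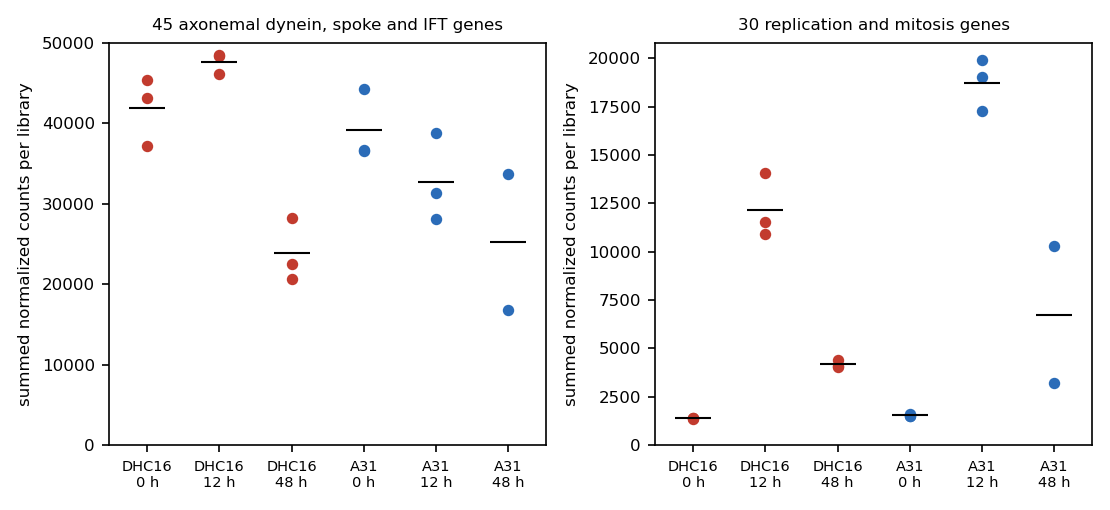
Summed normalized counts as deposited, per library (points) and as group means (lines), of the 45 ciliary genes (left) and of 30 replication and mitosis genes (right), by strain and time. The ciliary sum is lowest in A31 library 22 at 48 h (16733). The DHC16 libraries at 48 h follow (20672 to 28251), and A31 library 10 at 12 h (28048) lies just below the highest of them. The division sum is highest at 12 h in both strains.

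At 12 h against 0 h, 10 of the 45 rose and 1 fell in DHC16, against 30.1% higher and 26.4% lower among all tested genes. The share that rose was below the background and the share that fell far below it. The median change was 0.28, where that of all genes was 0.04. All DHC16 libraries at 12 h were above those at 0 h in 24 genes, against 35.3% of all tested genes, and below them in 4, against 31.8%. In A31 at 12 h, 0 rose and 16 fell, against 31.5% higher and 28.4% lower among all tested genes. There the median was -0.34, where that of all genes was 0.02, and the 12 h libraries were above those at 0 h in 0 genes, against 36.5% of all tested genes, and below them in 22, against 33.6%. With limma 1 gene was higher at an unadjusted p under 0.05 in A31, edgeR called 0 higher and 17 lower, and DESeq2 called 1 higher and 17 lower. With per-million scaling, 3 genes were higher and 5 lower in A31, where the median of all genes was 0.35, and 40 were higher and 0 lower in DHC16, where it was 0.78. The DHC16 count was 5 without DHC16 library 1, 7, 10, 13 or 16, 6 without DHC16 library 19 or A31 library 1 or 16, 7 without A31 library 4 and 20 without A31 library 19 or 22. The A31 count was 7 without A31 library 7 or 10 and 10 without A31 library 16. All 45 were listed by the authors as lower with rapamycin than in A31 at 0 h, and those controls may be the libraries used here. The choice of genes may thus favour high values in A31 at 0 h. That limits every comparison with this group, at 12 or 48 h or between the strains, and was not tested.

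At 48 h against 0 h, 0 rose and 27 fell in DHC16, against 29.7% higher and 25.3% lower among all tested genes, and the median change was -0.66, where that of all genes was 0.06. The 48 h libraries were above those at 0 h in 0 genes, against 32.9% of all tested genes, and below them in 31, against 28.8%. With per-million scaling, 16 were called higher and 2 lower (BBS1 and DHC1b), with a median of 0.38, where that of all genes was 1.07. The direction of the DHC16 change at 48 h thus turns with the scaling, but the place of the genes below the rest held: 44 of the 45, all but RSP4, lay below the median of all genes under both scalings and under quantile normalization. Without DHC16 library 22 the count of lower genes was 16. Neither edgeR nor DESeq2 called a higher gene at 48 h in DHC16, against 0 or 12 h, and with limma 0 were higher at an unadjusted p under 0.05.

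In A31 at 48 h against 0 h, 0 rose and 27 fell, against 14.4% higher and 12.6% lower among all tested genes, with a median of -0.77, where that of all genes was 0.03. Both 48 h libraries were above those at 0 h in 0 genes, against 23.3% of all tested genes, and below them in 31, against 22.5%. The count of 27 rests on library 22. Library 22 was below library 19 in 45 of 45 genes, with a median ratio of 0.492, and below the whole 0 h range in 45 of 45, whereas library 19 was below that range in 31, within it in 12 and above it in 2. Without library 22, 2 genes were called, RSP2 (-0.78 ± 0.22 SE, limma adjusted p = 0.0419) and RSP3 (-0.80 ± 0.18 SE, limma adjusted p = 0.0117), and without library 19, 43 were. Fitted on the A31 libraries at 0 and 48 h alone, 0 were called. The counts were 17 with edgeR and 24 with DESeq2, and at an unadjusted p under 0.05 limma had 36. Without A31 library 1 or 7 at 0 h the count was 13 or 10.

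**Figure D3:**
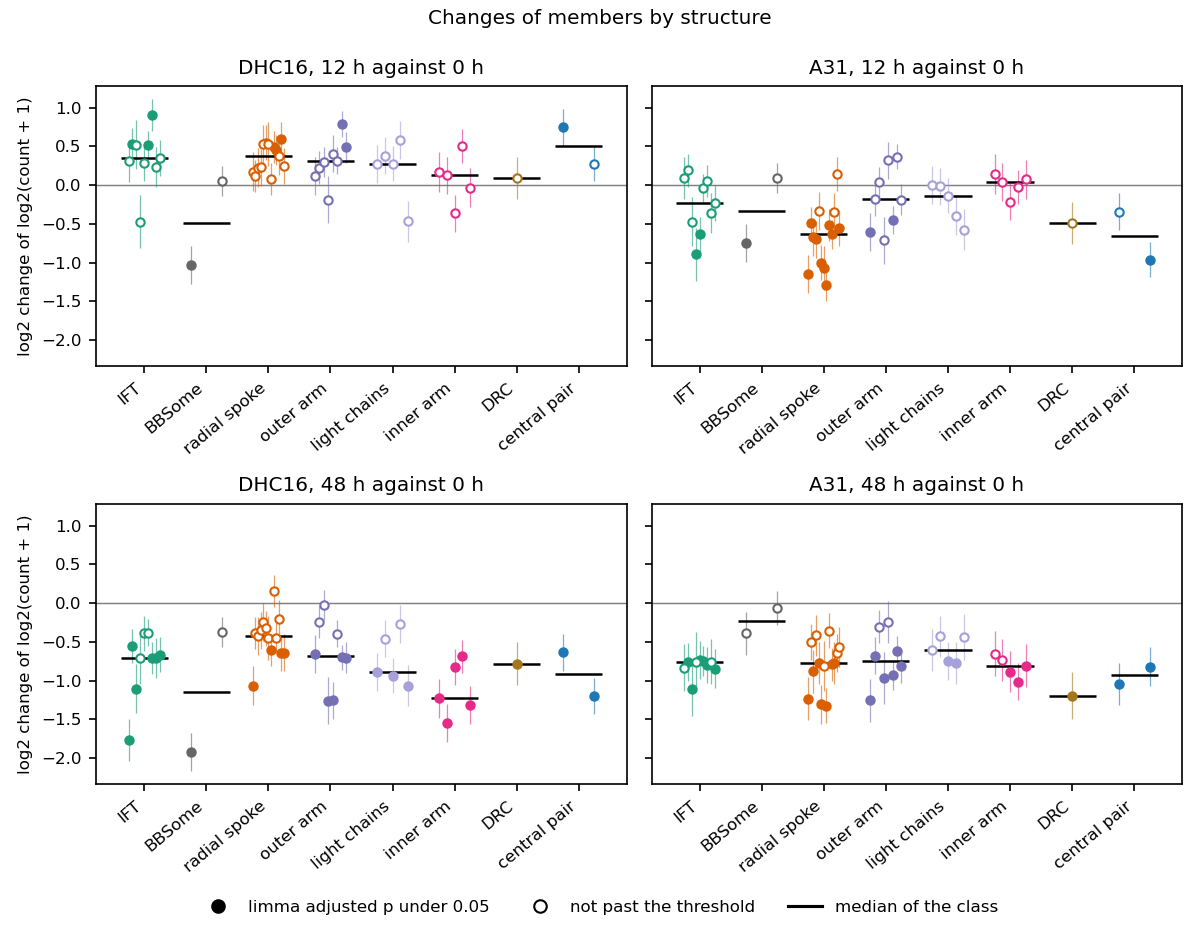
Log2 change of each gene with its SE (points and bars) at 12 h (top) and 48 h (bottom) against 0 h, in DHC16 (left) and A31 (right), by structure. Filled points passed the limma test, lines are medians of a structure. At 12 h the radial spoke genes lie above 0 in DHC16 and, but for RSP7, below 0 in A31.

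The 9 genes of IFT encode 1 subunit of complex A (IFT140), 7 of complex B (IFT20, IFT57, IFT74, IFT80, IFT81, IFT88 and IFT172) and the heavy chain of the dynein that drives trains back to the cell body (DHC1b). IFT80 had 684, 880 and 734 normalized counts at 0 h, 1393, 1377 and 1521 at 12 h and 474, 380 and 556 at 48 h in DHC16. In A31 it had 888, 755 and 1011 at 0 h, 764, 1092 and 909 at 12 h, and 669 and 381 at 48 h. The DHC16 groups did not overlap, and those of A31 overlapped between 0 and 12 h. IFT80 rose by 0.91 ± 0.21 at 12 h in DHC16 (limma adjusted p = 0.00143), as it did in all 25 alternative settings, and fell by 0.71 ± 0.21 at 48 h (limma adjusted p = 0.00827), a call that was lost with per-million scaling. IFT140 and IFT74 also rose at 12 h, by 0.53 and 0.52, and IFT140 was called in only 12 of 25 alternatives.

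IFT81 changed least of the IFT genes at 12 h in DHC16. It had 1141, 1152 and 1086 normalized counts at 0 h, 1343, 1312 and 1307 at 12 h and 703, 550 and 835 at 48 h in DHC16, against 892, 970 and 1175, then 655, 870 and 852, then 967 and 365 in A31. In DHC16 the 12 h libraries lay above those at 0 h and the 48 h libraries below them, but the 12 h change of 0.23 ± 0.26 did not pass (limma adjusted p = 0.465). At 48 h 6 of 9 IFT genes fell in DHC16 (DHC1b, IFT172, IFT81, IFT80, IFT88 and IFT140), against 25.3% of all tested genes. Against 12 h 8 of 9 fell, where 24.6% of all tested genes did. The exception was IFT20 (-0.24 ± 0.34, limma adjusted p = 0.599).

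DHC1b showed the largest fall among the IFT genes. In DHC16 it had 2013, 3066 and 1974 normalized counts at 0 h, 2700, 2744 and 3181 at 12 h and 675, 548 and 823 at 48 h. The A31 libraries had 1574, 1632 and 2342 at 0 h, 1724, 2890 and 1463 at 12 h, and 1361 and 766 at 48 h. The DHC16 libraries at 48 h were below every library of 0 and 12 h in either strain, and the change was -1.77 ± 0.27 against 0 h (limma adjusted p = 4.28e-05), called in all 25 alternatives. In A31 at 12 h the only IFT genes that changed were IFT20 (-0.89 ± 0.34, limma adjusted p = 0.0336) and IFT57 (-0.63 ± 0.22, limma adjusted p = 0.0218). At 48 h in A31 6 of 9 fell (IFT57, IFT74, IFT80, IFT88, IFT140 and IFT172), against 12.6% of all tested genes, with the limit of library 22 given above.

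The BBSome genes differed from each other. BBS1, a subunit of the BBSome core, had 1977, 2323 and 1222 normalized counts at 0 h, 867, 837 and 917 at 12 h and 484, 346 and 613 at 48 h in DHC16. Levels in A31 were 830, 943 and 894 at 0 h, 471, 603 and 515 at 12 h, and 893 and 512 at 48 h. The DHC16 groups of BBS1 fell in steps without overlap, as did those of IFT20, DLC7a and IDA4. For BBS1 the DHC16 libraries at 0 h were above all those of A31. BBS1 was the only member called lower at 12 h in DHC16 (-1.03 ± 0.25, limma adjusted p = 0.00199), and it fell in A31 as well (-0.75 ± 0.25, limma adjusted p = 0.0145). The DHC16 call was kept in 24 of 25 alternatives and lost with per-million scaling, where the value was -0.27.

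At 48 h BBS1 fell by 1.92 ± 0.25 in DHC16 (limma adjusted p = 7.15e-06), while in A31 the change was -0.39 ± 0.27 (limma adjusted p = 0.3). The DHC16 change minus the A31 change was -1.53 ± 0.37 (limma adjusted p = 0.00787), the only one of the 45 that limma called in that test, against 9.26% higher and 8.66% lower among all tested genes. It was called in 24 of 25 alternatives and lost with per-million scaling (-0.26, adjusted p = 0.455). BBS8, another BBSome subunit, had 566, 382 and 370 normalized counts at 0 h, 493, 426 and 428 at 12 h and 308, 306 and 393 at 48 h in DHC16, against 394, 348 and 429, then 443, 359 and 446, then 448 and 308 in A31. All its groups overlapped except DHC16 at 48 h against 12 h, and it passed no test in either strain.

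**Figure D4:**
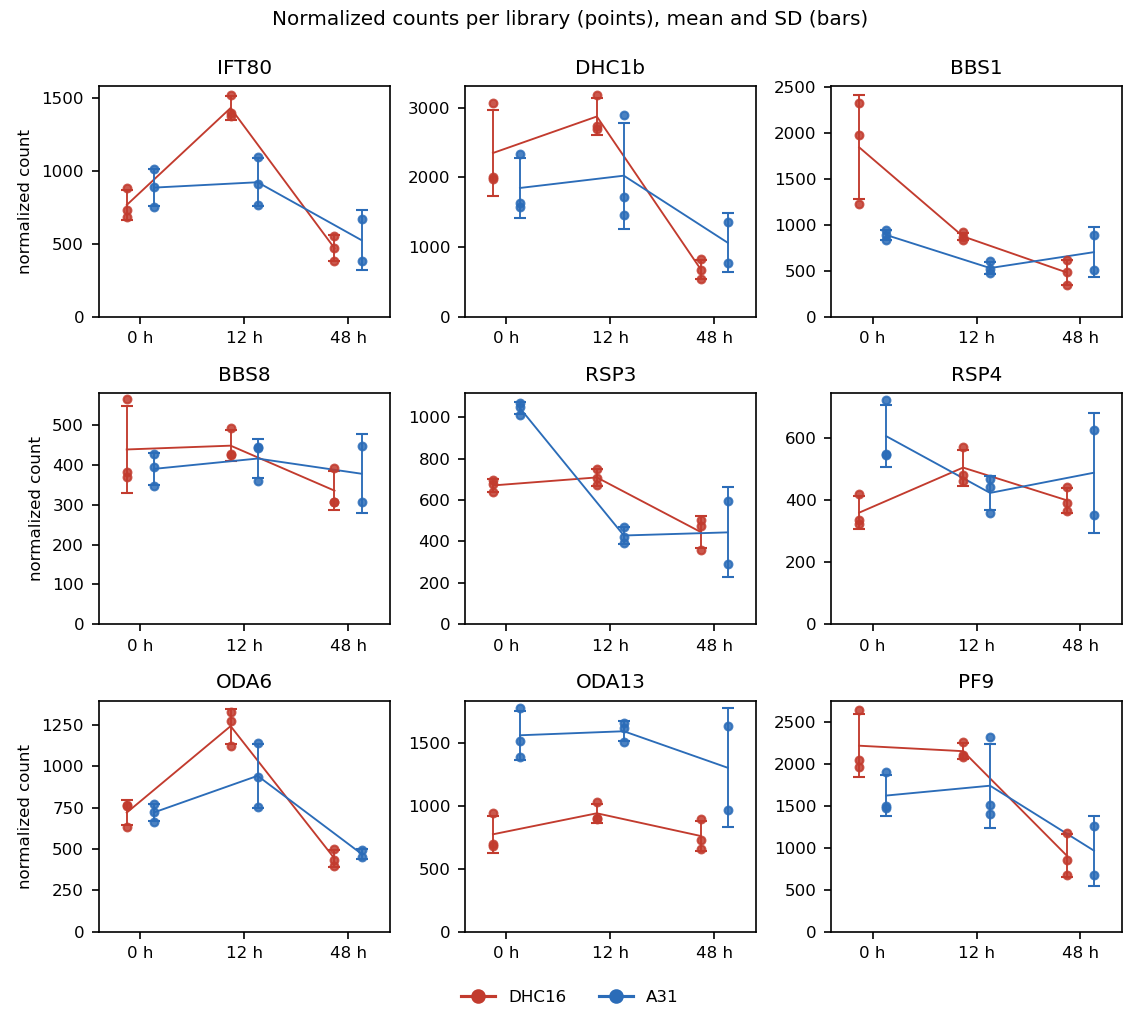
Normalized counts of 9 of the genes at 0, 12 and 48 h, with points for libraries, lines through the group means and bars for 1 SD, DHC16 in red and A31 in blue. BBS1 starts higher in DHC16 and RSP3 higher in A31, ODA13 stays lower in DHC16 at 0 and 12 h, and IFT80 and ODA6 peak at 12 h in DHC16.

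The radial spoke is a T-shaped complex whose head (RSP1, RSP4, RSP6, RSP9 and RSP10) faces the central pair and whose stalk (here RSP2, RSP3, RSP5, RSP7, RSP11, RSP14, RSP16 and RSP23) is anchored on the doublet by RSP3, an A-kinase anchoring protein. In A31 10 of 13 fell at 12 h, 4 of 5 in the head and 6 of 8 in the stalk, with a median of -0.64. Among all tested genes 28.4% fell there. With per-million scaling only RSP1, RSP2, RSP3 and RSP23 of the spoke genes kept that call. In DHC16 limma called 4 of 13 higher (RSP2, RSP4, RSP5 and RSP7) and 0 lower, with a median of 0.37, edgeR called 1 higher and DESeq2 2. The limma share of 30.8% was near the 30.1% of all tested genes called higher. The test of the difference between the strains, given further on, called 0 of 13 spoke genes with limma or edgeR and 5 with DESeq2. Of the 16 falls in A31 among the 45 genes, those of RSP1, RSP2, RSP3, RSP23 and PF6 were called in all 25 alternatives, while RSP9 was called in 9 and RSP10 in 10.

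RSP3 had 696, 677 and 638 normalized counts at 0 h, 751, 705 and 673 at 12 h and 474, 358 and 504 at 48 h in DHC16. In A31 it had 1013, 1070 and 1050 at 0 h, 394, 471 and 421 at 12 h, and 597 and 290 at 48 h. The A31 libraries at 0 h were the highest of all 17, and those at 12 h were below every DHC16 library of 0 and 12 h. The change at 12 h was 0.08 ± 0.20 in DHC16 (limma adjusted p = 0.755) and -1.29 ± 0.20 in A31 (limma adjusted p = 5.86e-05). The difference of the changes was 1.37 ± 0.29 (limma adjusted p = 0.058), short of the threshold.

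RSP23, a stalk protein with a nucleoside diphosphate kinase domain, had 218, 181 and 249 normalized counts at 0 h, 325, 288 and 321 at 12 h and 174, 112 and 200 at 48 h in DHC16. Its A31 values were 428, 388 and 472 at 0 h, 171, 278 and 176 at 12 h, and 385 and 154 at 48 h. The strains stood in opposite order at 0 and 12 h with no overlap at either time. RSP23 fell at 12 h in A31 (-1.07 ± 0.29, limma adjusted p = 0.0042), and the 12 h change in DHC16 was 0.53 ± 0.29 (limma adjusted p = 0.124).

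RSP4, a head protein, was the only member with a higher mean at 48 h than at 0 h in DHC16. It had 323, 336 and 422 normalized counts at 0 h, 572, 481 and 464 at 12 h and 366, 390 and 444 at 48 h in DHC16, against 547, 550 and 724, then 360, 467 and 444, then 626 and 352 in A31. It rose at 12 h in DHC16 (0.49 ± 0.20, limma adjusted p = 0.0468, called in 10 of 25 alternatives), fell in A31 (-0.51 ± 0.20, limma adjusted p = 0.037), and its DHC16 change at 48 h was 0.16 ± 0.20 (limma adjusted p = 0.531). RSP4 and RSP6 stand side by side in the RefSeq gene order of assembly v5.5 and encode similar proteins, so reads may have been split or dropped between them in counting.

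RSP7 was the only spoke gene whose 12 h change in A31 was not below 0. It had 347, 378 and 322 normalized counts at 0 h, 485, 549 and 554 at 12 h and 264, 169 and 244 at 48 h in DHC16, against 294, 299 and 390, then 303, 501 and 307, then 252 and 170 in A31. It rose in DHC16 at 12 h (0.60 ± 0.22, limma adjusted p = 0.0286) and its A31 change was 0.15 ± 0.22 (limma adjusted p = 0.583). At 48 h against 0 h 4 of 13 spoke genes fell in DHC16 (RSP1, RSP3, RSP7 and RSP9), a share of 30.8% that was near the 25.3% of all tested genes. Against 12 h limma called 9 of 13 lower, against 24.6% of all tested genes, edgeR 8 and DESeq2 10. The spoke genes that missed the limma threshold were RSP4, RSP6, RSP10 and RSP14, with changes of -0.34, -0.57, -0.49 and -0.58.

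The outer dynein arm genes encode the gamma heavy chain (ODA2), 2 intermediate chains (ODA6 and ODA9), 2 light chains (ODA12 and ODA13) and the 3 proteins of the docking complex that seats the arm on the doublet (ODA1, ODA3 and ODA14). ODA6 had 768, 760 and 632 normalized counts at 0 h, 1276, 1126 and 1329 at 12 h and 436, 394 and 497 at 48 h in DHC16. The A31 libraries had 723, 666 and 773 at 0 h, 753, 1142 and 934 at 12 h, and 492 and 450 at 48 h. It is the gene whose 2 A31 libraries at 48 h agreed best among those shown, and both were below every A31 library of 0 and 12 h. ODA6 rose at 12 h in DHC16 (0.79 ± 0.16, limma adjusted p = 0.00058) in all 25 alternatives as well, and fell at 48 h (-0.70 ± 0.16, limma adjusted p = 0.00163). ODA9, its partner intermediate chain, also rose at 12 h in DHC16 (0.49 ± 0.20, limma adjusted p = 0.0442), a call that 13 of 25 alternatives kept.

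ODA1, a docking complex subunit, changed least of the outer arm genes at 12 h in DHC16. It had 1440, 1368 and 1123 normalized counts at 0 h, 1472, 1397 and 1375 at 12 h and 941, 594 and 1003 at 48 h in DHC16. In A31 the values were 1374, 1352 and 1413 at 0 h, 721, 1067 and 975 at 12 h, and 850 and 392 at 48 h. The A31 libraries at 12 h were all below those at 0 h, with a change of -0.60 ± 0.25 (limma adjusted p = 0.043), and ODA3 fell as well (-0.45 ± 0.18, limma adjusted p = 0.0353). ODA14 was -0.71 ± 0.30 in A31 at 12 h and did not pass (limma adjusted p = 0.0521).

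ODA13, the LC6 light chain, differed between the strains and passed no comparison in time. It had 943, 681 and 695 normalized counts at 0 h, 1026, 901 and 894 at 12 h and 660, 728 and 891 at 48 h in DHC16, against 1390, 1515 and 1774, then 1504, 1617 and 1654, then 1637 and 966 in A31. Every DHC16 library of 0 and 12 h was below every A31 library of those times, and the libraries of a strain overlapped between 0 and 12 h. At 0 h ODA13 was lower in DHC16 by -1.02 ± 0.19 on the log2 scale (limma adjusted p = 0.00365), a call kept in all 26 alternatives. At 48 h 5 of 8 outer arm genes fell in DHC16 (ODA1, ODA2, ODA6, ODA9 and ODA14), against 25.3% of all tested genes. With values scaled to 1 total per library these calls were lost, and ODA1 (0.38), ODA6 (0.34) and ODA9 (0.34) were above 0. In A31 6 of 8 fell at 48 h (ODA1, ODA3, ODA6, ODA9, ODA12 and ODA14), against 12.6% of all tested genes. That A31 count carries the limit of the A31 libraries at 48 h given above.

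The 5 genes with the symbol DLC encode further light chains of the outer arm. DLC5 moved most at 12 h in DHC16, where it had 374, 291 and 324 normalized counts at 0 h, 537, 441 and 499 at 12 h and 272, 227 and 323 at 48 h, against 408, 356 and 503, then 276, 336 and 345, then 372 and 159 in A31. DLC1 moved least, with 821, 646 and 622 at 0 h, 914, 790 and 801 at 12 h and 329, 375 and 422 at 48 h in DHC16, against 578, 582 and 773, then 577, 671 and 674, then 660 and 266 in A31. DLC5 changed by 0.58 ± 0.24 at 12 h in DHC16 and missed the threshold (limma adjusted p = 0.0516). At 12 h 0 of the 5 passed in either strain with limma or edgeR, with 1 at an unadjusted p under 0.05 in each, and DESeq2 called 1 in DHC16 and 0 in A31. At 48 h DLC1, DLC4 and DLC7a fell in DHC16, by 0.89, 0.94 and 1.07 on the log2 scale, and DLC3 was -0.46 ± 0.24 (limma adjusted p = 0.109).

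The inner arm genes encode heavy chains (PF9, of the double-headed I1 dynein, and DHC2 and DHC6), the I1 intermediate chain IDA7 and the p28 light chain IDA4. All 5 fell at 48 h in DHC16, against 25.3% of all tested genes, with a median of -1.23. With per-million scaling these calls were lost, and IDA4 (0.22) and IDA7 (0.35) were above 0. At 12 h 0 passed in either strain with limma, edgeR or DESeq2, with 1 at an unadjusted p under 0.05 in DHC16 and 0 in A31. IDA7 moved most at 12 h in DHC16, with 329, 288 and 268 normalized counts at 0 h, 430, 406 and 416 at 12 h and 168, 134 and 268 at 48 h, against 352, 304 and 373, then 288, 416 and 317, then 184 and 155 in A31. Its 12 h change of 0.51 ± 0.21 missed the threshold (limma adjusted p = 0.0529). Both A31 libraries at 48 h were below all earlier ones.

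PF9 moved least at 12 h in DHC16. It had 2048, 2650 and 1959 normalized counts at 0 h, 2112, 2086 and 2263 at 12 h and 678, 855 and 1182 at 48 h in DHC16, against 1470, 1494 and 1908, then 1507, 2319 and 1399, then 1261 and 672 in A31. The DHC16 libraries at 48 h lay far below the earlier ones, and the change was -1.32 ± 0.25 against 0 h (limma adjusted p = 0.000314). It was called in 24 of 25 alternatives and lost with per-million scaling, where the value was -0.28.

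Across the structures, the 5 dynein heavy chain genes (DHC1b, ODA2, PF9, DHC2 and DHC6) all fell at 48 h in DHC16, against 25.3% of all tested genes. With per-million scaling only DHC1b kept its call. They were grouped after their values were seen. Their changes against 0 h were -1.77, -1.25, -1.32, -1.23 and -1.55 in that order, each below -1, and BBS1, ODA14, PF6, IFT172, DLC7a and RSP1 were the other genes below -1. At 12 h against 0 h 0 of the 5 passed in either strain with limma, edgeR or DESeq2, and 0 had an unadjusted p under 0.05.

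PF2, a subunit of the dynein regulatory complex, which links neighbouring doublets, had 898, 822 and 594 normalized counts at 0 h, 859, 779 and 794 at 12 h and 484, 322 and 552 at 48 h in DHC16. Levels in A31 were 648, 644 and 802 at 0 h, 360, 582 and 576 at 12 h, and 450 and 203 at 48 h. The DHC16 libraries at 48 h were below all the earlier ones, and PF2 fell there by 0.78 ± 0.27 (limma adjusted p = 0.0224). Neither strain's change at 12 h passed.

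Of the central pair genes, PF16, an armadillo repeat protein, had 849, 892 and 772 normalized counts at 0 h, 1469, 1310 and 1429 at 12 h and 609, 385 and 663 at 48 h in DHC16. Its A31 values were 1063, 1135 and 1282 at 0 h, 786, 1051 and 921 at 12 h, and 824 and 381 at 48 h. It rose at 12 h in DHC16 (0.74 ± 0.24, limma adjusted p = 0.0138) in all 25 alternatives as well, against -0.34 ± 0.24 in A31 (limma adjusted p = 0.228). PF6, a large projection protein of the central pair, had 368, 340 and 343 at 0 h, 460, 411 and 404 at 12 h and 175, 110 and 182 at 48 h in DHC16, against 468, 452 and 513, then 233, 304 and 204, then 370 and 196 in A31. It fell in A31 at 12 h (-0.96 ± 0.23, limma adjusted p = 0.00167) and in DHC16 at 48 h (-1.20 ± 0.23, limma adjusted p = 0.000322).

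At 0 h few of the 45 differed between the strains, but the structures leaned in different directions. Of the 45, 1 was called higher (BBS1, 1.00 ± 0.25, limma adjusted p = 0.017) and 3 lower in DHC16 (ODA13, RSP23 and RSP4), against 4.72% higher and 4.66% lower among all tested genes. The median difference was -0.01, as for all tested genes. For the spoke genes it was -0.36, with 11 of 13 below 0 and 6 at an unadjusted limma p under 0.05, and DESeq2 called 5 lower. For the dynein heavy chains it was 0.40, with 5 of 5 above 0 and 1 at an unadjusted limma p under 0.05. RSP23 was -0.99 ± 0.29 (limma adjusted p = 0.039) and RSP4 -0.75 ± 0.20 (limma adjusted p = 0.0277), and RSP2, RSP1 and RSP3 fell just short, with limma adjusted p of 0.0507, 0.0529 and 0.0582. With same-numbered libraries paired as a replicate block, RSP3 was called as well (-0.64, limma adjusted p = 0.0383), and the other calls at 0 h stayed. With per-million scaling, 34 were called lower and 0 higher, where the median of all genes was -0.71. Without A31 library 1 or 7, or without DHC16 library 1 or 4, 1 of the 45 was called, and without A31 library 19 or 22 10 were. With DESeq2 the counts were 1 higher and 6 lower.

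At 12 h the strains stood further apart in the normalized counts as deposited. All DHC16 libraries were above all A31 libraries in 34 of 45 genes, against 17.1% of all tested genes, and below them in 1, against 18.8%. At 0 h these counts had been 6, against 16.8%, and 12, against 16.4%, and at 48 h they were 0, against 23.0%, and 2, against 22.4%. Such counts were not made with per-million scaling. There the sum of the 45 genes overlapped between the strains at 12 h (5397.9 to 5636.7 in DHC16, 4121.1 to 5787.2 in A31). At 0 h it did not, and DHC16 was lower (2618.7 to 3126.9, against 3825.7 to 5195.8 in A31).

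The difference of the 12 h changes, DHC16 minus A31, was above 0 in 41 of 45 genes and in 13 of 13 spoke genes, with a median of 0.58, where that of all tested genes was -0.02. With limma 0 of the 45 were called, against 0.153% higher and 0.0971% lower among all tested genes, and 20 had an unadjusted p under 0.05, all higher in DHC16. Of these 20, 11 were spoke genes, and the nearest to the threshold was RSP2 (1.55 ± 0.32, limma adjusted p = 0.052). The spoke genes began from unequal levels, with a median of -0.36 in DHC16 against A31 at 0 h. RSP2 had 306, 342 and 260 normalized counts at 0 h and 448, 418 and 457 at 12 h in DHC16, against 497, 435 and 572, then 202, 304 and 249 in A31. By edgeR 0 were called and 22 had an unadjusted p under 0.05, and DESeq2 called 6, all higher. Without either A31 library of 48 h limma called 13, all higher in DHC16, as it did when just 1 of the 2 was left out, and fitted on the 0 and 12 h groups alone it called 16. With per-million scaling, 16 were called, all higher.

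At 48 h the count of genes that differed in their change followed the A31 library used. Without library 19 limma called 17 genes higher and 1 lower, and without library 22 it called 0 higher and 12 lower. With per-million scaling, 37 were called higher and 0 lower, where the median of all genes was 1.28. Between 12 and 48 h in A31, 0 rose and 11 fell, against 12.2% higher and 14.7% lower among all tested genes, with 4 of 5 inner arm genes and 1 of 13 spoke genes (RSP7) among them. That count was 34 without library 19, and without library 22 9 genes were higher and 2 lower. It was 35 with per-million scaling, 3 without A31 library 13 and 0 in a fit on the A31 libraries of 12 and 48 h alone. With edgeR 6 were called and with DESeq2 11, and limma had 19 at an unadjusted p under 0.05.

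Of 138 other ciliary genes with a symbol, 2 rose (1.4%) and 109 fell (79.0%) between 12 and 48 h in DHC16, against 23.2% and 24.6% of all tested genes. At 12 h against 0 h, 34 rose (24.6%) and 3 fell (2.2%) in DHC16, against 30.1% and 26.4%, and 24 rose (17.4%) and 70 fell (50.7%) in A31, against 31.5% and 28.4%. The medians of these changes were -1.07, 0.28 and -0.63. These genes also come from the rapamycin tables, where 57 of 59 listings at 2 h and 125 of 130 at 8 h were lower. Their choice may thus also favour high values in A31 at 0 h, which was not tested, and they are no independent set. The largest changes at 12 h in DHC16 were those of POC4, a protein of the centriole proteome, and FAP212, a flagella associated protein. POC4 had 0 normalized counts in every DHC16 library at 0 h, 272 ± 83.1 at 12 h and 16 ± 4.93 at 48 h (SD, n = 3). Its A31 mean also rose, from 0.703 at 0 h to 388 at 12 h. The mean of FAP212 rose from 36.6 to 6891 in DHC16 and from 9.07 to 9649 in A31 over the same time. At 48 h FAP212 had 384 ± 62.9 in DHC16 (SD, n = 3) and 2605 ± 599 in A31 (SD, n = 2).

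Some of the genes are neighbours in the RefSeq gene order of assembly v5.5, where ODA3 is next to IFT172 and RSP14 lies between ODA14 and HSP22E, a chloroplast small heat shock protein. Whether counting used strand is not given in the sources used here, so reads of overlapping neighbours could not be told apart. HSP22E had 21440, 31720 and 25330 normalized counts in DHC16 at 48 h, against 272, 151 and 206 at 0 h. RSP14 had 162, 207 and 170 in DHC16 at 48 h, against 270, 234 and 189 at 0 h, and ODA14 had 601, 493 and 754, against 1572, 1303 and 1502. While HSP22E rose by 6.98 ± 0.23 (limma adjusted p = 2.28e-12), RSP14 was at -0.35 ± 0.24 (limma adjusted p = 0.217) and ODA14 fell (-1.26 ± 0.30, limma adjusted p = 0.0022).

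For rapamycin, each of the 45 genes was chosen for standing in the authors' deposited table at 2 or 8 h, which lists only genes past the authors' thresholds, so its values there are a description without a test. The authors' deposited table lists 24 of them at 2 h and 44 at 8 h, 23 at both times, 1 only at 2 h (BBS1) and 21 only at 8 h. All listed values of the 45 in the authors' deposited table are below 0, with a median log2 fold change (rapamycin over 0 h) of -1.25 at 2 h and -1.60 at 8 h. Among all genes in the authors' deposited table, 54.1% of 1939 were lower at 2 h and 59.6% of 1702 at 8 h. The 0 h records of the rapamycin set repeat strain, time and numbers of those of A31 in the vitamin set, so the 2 sets may share controls.

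By structure, the lowest median at 8 h in the authors' deposited table was that of the IFT genes, -2.16, against -1.52 for the spoke genes, -1.49 for the light chains, -1.49 for the inner arm and -1.40 for the outer arm. IFT172 was lowest, with a mean level of 3.09 at 8 h, against 20.8 at 0 h, and a log2 fold change of -2.62 in the authors' deposited table, whose levels have no stated scale. Below -2 in the authors' deposited table at 8 h were also ODA1 (-2.46), PF16 (-2.35), IFT80 (-2.28), IFT140 (-2.26), RSP1 (-2.21), IFT81 (-2.16), IFT57 (-2.16), RSP16 (-2.10) and RSP3 (-2.07). The smallest falls at 8 h in the authors' deposited table were those of ODA12 (-1.03), BBS8 (-1.05) and ODA2 (-1.06), near the edge of what is listed.

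All 23 genes listed at both times were lower at 8 h than at 2 h in the authors' deposited table, by a median of -0.62 and a range of -1.23 to -0.12. DLC4 was lowest at 2 h in the authors' deposited table (-1.81), with a mean level of 1.66, against 12.3 at 0 h, and had -1.98 at 8 h. Of the spoke genes 10 of 13 were listed at 2 h in the authors' deposited table, but of the outer arm genes 1 of 8 (ODA6). Other ciliary genes were lower in 57 of 59 listings at 2 h and 125 of 130 at 8 h in the authors' deposited table, and the replication and mitosis genes in 29 of 29 and 8 of 8.

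**Figure D5:**
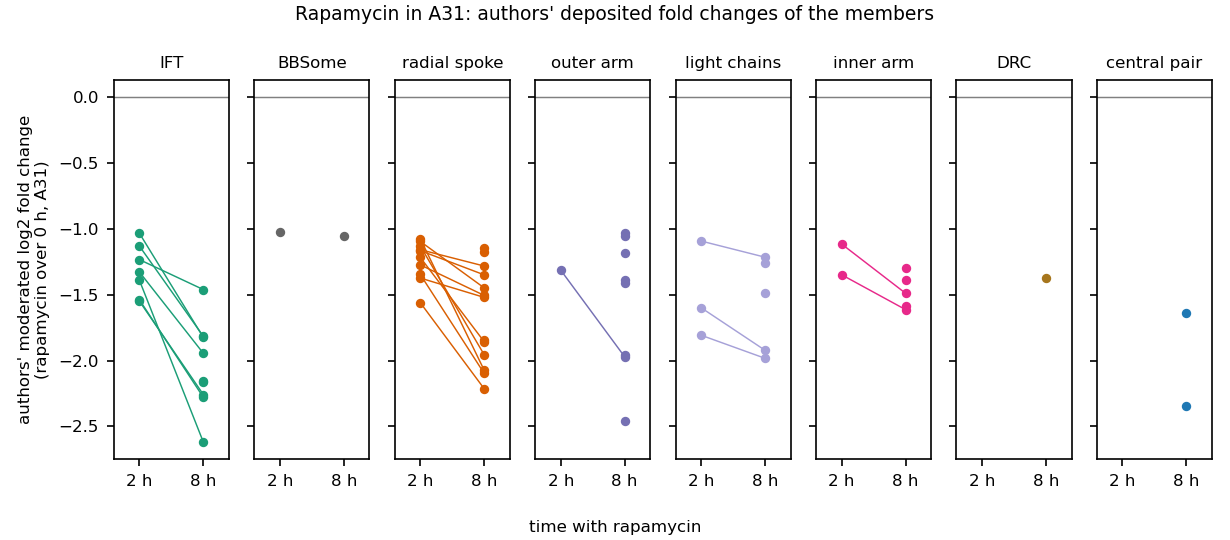
Log2 fold changes (rapamycin over 0 h, A31) in the authors' deposited table for the 45 genes, by structure, with lines joining genes listed at both 2 and 8 h. All values are below -1, since the table lists only genes past the authors' thresholds, and the IFT genes reach -2.62 at 8 h.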

How the data were processed

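Total RNA, per the labels, of 2 strains was sequenced. The authors deposited normalized counts per gene and library, a signal equal to whole reads divided by 1 factor per library: 100% of values were whole multiples within 0.01. Another deposited table holds the same values and was used once. For rapamycin the authors deposited, per the file headers, mean levels (a signal of unstated scale), moderated log2 fold changes, p-values and adjusted p-values; their test is not stated. The submitters' processing notes name edgeR 3.0.8, HTSeq 0.5.3p9, TopHat 1.3.1 and CASAVA 1.8.2 as the authors' tools. Not given in the sources used here are the build, annotation, strand setting and normalization.

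Genes that averaged 1 or more on a per-million scale were tested with limma 3.58.1 (R 4.3.3, trend option) after log2(normalized count + 1), in 1 model of the 6 strain-by-time groups over all 17 libraries, with Benjamini-Hochberg adjustment over 14422 genes. Such changes understate those of low genes. edgeR 4.0.16 quasi-likelihood and DESeq2 1.42.0 on the recovered reads were alternatives, with other scalings, filters and sets of libraries. The steps were tested on simulated data. At 0 h the deviations of same-numbered libraries of the strains correlated weakly in all 3 pairs (r = 0.222, 0.211 and 0.151). The numbers come from the sample titles, and the labels do not say that they mark shared cultures. The main fit therefore did not pair libraries at any time, and a fit with the numbers as a replicate block was an alternative. Of the 45 genes, 42 matched RefSeq. Of 42 sample records 18 are of the vitamin set and 24 of the rapamycin set, and not analysed here were the rapamycin libraries, A31 library 25 at 48 h and the 31 and 43 h stages, so the planned fits of rapamycin were not made. Values in every library are given for the genes of each structure with the largest and smallest 12 h change in DHC16, for those called between strains and for those against the commonest direction; DHC1b, RSP2, RSP14, ODA14 and HSP22E were added after their values were seen. The members and gene lists were chosen with earlier results of these data known. No genome sequence was used.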

Additional observations from a re-analysis of the deposited data

Results flagged for a closer look

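BBS1, a BBSome subunit, was marked by a test of the difference between the strains: its 48 h change in DHC16 minus that in A31 was -1.53 ± 0.37 (SE) on the log2 scale (limma adjusted p = 0.00787). DHC16 libraries had 484, 346 and 613 normalized counts at 48 h, against 1977, 2323 and 1222 at 0 h, and A31 libraries had 893 and 512 at 48 h, against 830, 943 and 894 at 0 h.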

How the results depend on the processing

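The fall of the 45 genes in DHC16 between 12 and 48 h kept its direction and a like count (25 to 42 called) in every alternative. With a pseudocount of 5, 1 gene was called in the strain difference of the 12 h change and 2 in that of the 48 h change, and without the filter 14 genes were called in A31 at 12 h, 10 in A31 at 48 h against 12 h and as many as before in the other comparisons. With per-million scaling, the counts were 8 in A31 and 40 in DHC16 at 12 h, 35 in A31 at 48 h against 12 h, 34 between strains at 0 h, and 16 and 37 in the strain differences at 12 and 48 h. Quantile normalization gave 5 in DHC16 at 12 h, 6 in A31 at 48 h against 12 h and 1 in the strain difference at 12 h. With edgeR there were 6 in DHC16 at 12 h and, in A31 at 48 h, 17 against 0 h and 6 against 12 h, and with DESeq2 7 between strains at 0 h and 6 and 2 in the differences at 12 and 48 h. Fits on only the groups compared gave 22 in DHC16 at 12 h, 0 in A31 at 48 h against 0 h and 0 against 12 h, 10 between strains at 0 h and 16 in the difference at 12 h. Without both A31 libraries at 48 h these were 20 in DHC16 at 12 h, 10 between strains and 13 in the difference at 12 h. The cause of these moves was not tested. Leaving out 1 library at a time, counts ran from 5 to 20 in DHC16 and 7 to 22 in A31 at 12 h, 16 to 35 in DHC16 and 2 to 43 in A31 at 48 h, 28 to 42 in DHC16 and 3 to 34 in A31 at 48 h against 12 h, 1 to 10 between strains at 0 h, and 0 to 13 and 1 to 18 in the differences at 12 and 48 h; a lone A31 library at 48 h was assumed to vary like the other groups.

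Relative to the median of all genes, the medians of the 45 were (as deposited, per-million, quantile): -0.72, -0.69 and -0.61 in DHC16 at 48 h, 0.24, 0.26 and 0.37 in DHC16 at 12 h, -0.36, -0.36 and -0.37 in A31 at 12 h, 0.60, 0.62 and 0.72 in the strain difference at 12 h and 0.06, 0.09 and 0.16 in that at 48 h. Between strains at 0 h they were 0.001, -0.022 and -0.21, with 22, 24 and 34 genes below the median of all genes. In DHC16 at 12 h per-million scaling, which shifts all genes nearly alike, gave PF9 0.72, now called, and, without a call, IFT20 0.28, DLC7a 0.29, IDA4 0.39 and ODA14 0.56, all below 0 as deposited. In DHC16 at 48 h against 0 h it gave BBS8 0.67, IFT140 0.48, IFT57 0.65, IFT74 0.66, IFT80 0.33, IFT81 0.33, IFT88 0.38, DLC1 0.15, DLC3 0.58, DLC4 0.10, DLC5 0.77, PF2 0.26, IDA4 0.22, IDA7 0.35, PF16 0.40, ODA1 0.38, ODA12 0.80, ODA13 1.02, ODA3 0.65, ODA6 0.34, ODA9 0.34, RSP10 0.66, RSP11 0.61, RSP14 0.68, RSP16 0.79, RSP2 0.71, RSP3 0.44, RSP5 0.59, RSP6 0.84, RSP7 0.39 and RSP9 0.40. Between strains at 0 h it gave BBS8 -0.57, IFT140 -0.61, DLC1 -0.60, DLC3 -0.69, DLC4 -0.56, PF2 -0.59, ODA12 -0.54, ODA9 -0.64, RSP10 -0.70 and RSP7 -0.61, and in the strain difference at 48 h BBS8 0.96, IFT172 1.26, DLC1 0.99, DLC3 1.23, DLC4 1.07, PF6 0.88, ODA6 1.18, RSP7 1.26 and RSP9 1.19. In A31 at 48 h against 12 h, leaving out 1 library gave ranges of -0.92 to 1.2 for IFT20, -0.75 to 0.57 for RSP1, -0.56 to 0.48 for RSP3 and -0.63 to 0.61 for RSP9, the lower end without library 19 and the upper without library 22. The strain difference of IFT20 at 48 h ran from -1.01 without library 22 to 1.11 without library 19.

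Same-numbered libraries of the strains correlated in their deviations with r of 0.178, 0.007 and -0.03 at 12 h and -0.084 and 0.056 at 48 h. The replicate block was fitted for the 3 comparisons between strains and paired same-numbered libraries at every time, not only at 0 h. With it 5 genes were called at 0 h, 1 higher and 4 lower, 0 in the difference at 12 h and 2 in that at 48 h.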
